A study of Homo sapiens with 9 samples.

Results

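The response of cisplatin-resistant OVCAR4 cells to EPZ015666, a small-molecule inhibitor of the arginine methyltransferase PRMT5, was read from 6 of the 9 RNA-seq libraries of the series. OVCAR4 is a human line grown from a serous ovarian carcinoma of high grade and is long established. Its Pt-resistant derivative was made, by the study's methods, through continuous exposure to platinum, and all 6 libraries come from this derivative. In the DMSO group, 3 wells received the solvent. In the EPZ015666 group, 3 wells received 5 uM of the inhibitor for 5 days. The comparison asks which genes depend on PRMT5 activity in cells with reduced sensitivity to platinum. The 3 libraries of naive (platinum-sensitive) cells under DMSO served here for the estimate of spread and, in a few places, as a described level. Every gene with enough counts was tested, which left 14630 of 61487. Expression is given as CPM, the counts of a gene scaled to a common library total. CPM are not corrected for gene length, so they are compared between groups for 1 gene and never between genes. Where values of single wells are given, they stand in the order of replicates 1, 2 and 3. Differences between the groups are log2 fold changes (EPZ015666 over DMSO) with their standard error, 3 wells a group. The standard error is the one implied by the test named next, whose spread was estimated over all 9 libraries. A gene is said to have risen or fallen only where edgeR's quasi-likelihood test gave a Benjamini-Hochberg adjusted p under 0.05 over all 14630 genes. The samples are wells of 1 line at 1 dose and 1 time, so each p-value sets a difference against well-to-well spread alone, which may be technical.

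PRMT5 places symmetric dimethyl marks on arginines, together with its partner MEP50 (WDR77), and takes the methyl group from S-adenosylmethionine, which the methionine adenosyltransferases make. Its known substrates include histones H4 and H3, the Sm proteins of the spliceosome, and transcription factors. Adaptor proteins such as pICln (CLNS1A), RIOK1 and COPRS guide the enzyme to these substrates. EPZ015666 binds the pocket of the enzyme that holds the substrate arginine, so it is the activity of the enzyme that it blocks, and the mRNA of PRMT5 does not report on that activity.

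The mRNA of PRMT5 stood at 127, 107 and 117 CPM in the DMSO wells and at 125, 120.4 and 105 CPM in the EPZ015666 wells. The groups overlapped, and the log2 fold change was -0.01 ± 0.08 (edgeR quasi-likelihood test, adjusted p = 0.959). Around the enzyme, MAT2A, which makes S-adenosylmethionine, read 245, 255 and 281 CPM under DMSO and 134, 145 and 133 CPM under EPZ015666, a change of -0.92 ± 0.08. Its regulatory partner MAT2B rose by 0.62, from a mean of 124 to 189.9 CPM. Among adaptors, RIOK1 fell (-0.55) and COPRS rose (0.53), while WDR77 (-0.05) and CLNS1A (-0.12) did not pass. AHCY, which hydrolyses S-adenosylhomocysteine, and MTR, which turns homocysteine back into methionine, fell (-0.32 and -0.37). Of the 8 tested genes of other arginine methyltransferases, 5 fell (62.5%, against 30.5% of all genes tested), with PRMT3 (-0.79) and PRMT6 (-0.73) among them, and 2 rose (25%, against 31.9%). PRMT7, which makes monomethyl arginine, rose by 0.54. PRMT2 rose by 0.21, but did not pass without DMSO replicate 1 (0.16), DMSO replicate 3 (0.19), EPZ015666 replicate 1 (0.18) or EPZ015666 replicate 3 (0.21). PRMT1, the main asymmetric enzyme, had a difference of 0.09 and did not pass.

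The inhibitor changed 9136 of the 14630 genes tested, 62.4%. Of these, 4669 were higher (31.9% of the genes tested) and 4467 lower (30.5%). Groups of wells that did not overlap at all were found for 33.7% of genes upward and 32.8% downward. These shares are the background against which each group of genes below is read. At 2-fold and more the balance moved upward, with 1673 genes higher (11.4%) and 952 lower (6.51%). At 4-fold it was 482 against 127, at 8-fold 156 against 21, and at 16-fold 48 against 5. The median size of a called change was 0.75 on the log2 scale for genes that rose and 0.58 for genes that fell. The upward excess was larger among genes of low level. In the lowest of 5 equal bins by mean CPM (median 0.978 CPM), 26.9% of genes rose by 2-fold or more and 12.1% fell so. In the highest bin (median 147 CPM) these were 2.73% and 2.32%.

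**Figure D1:**
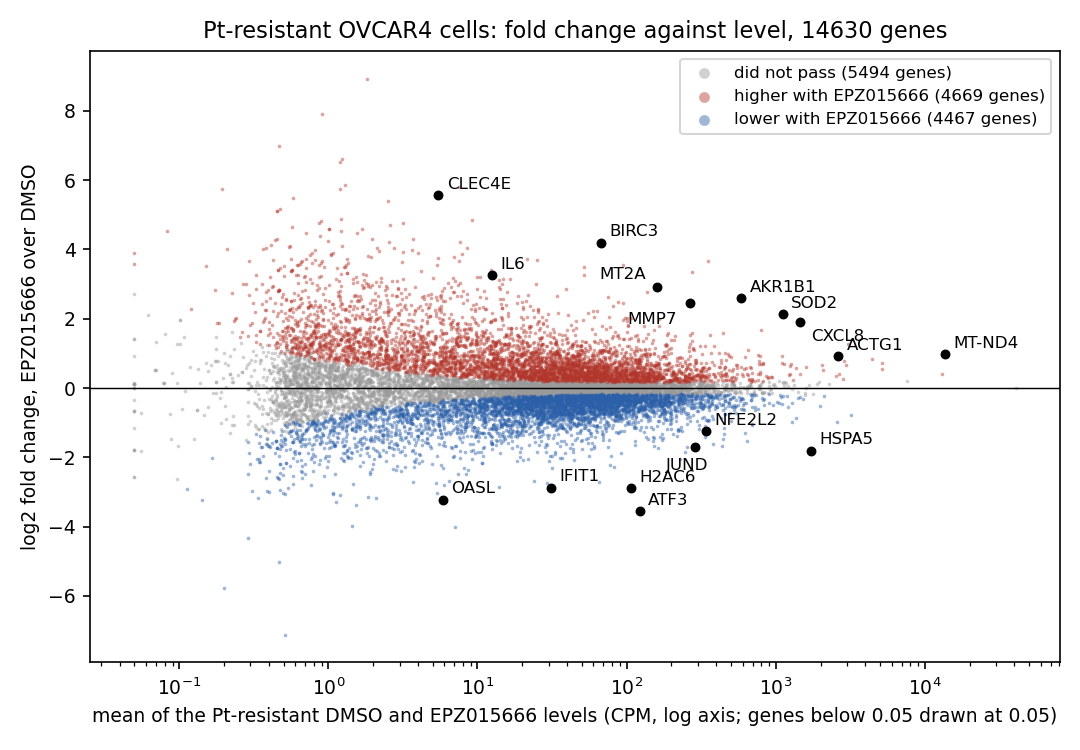
Log2 fold change (EPZ015666 over DMSO, y axis) of each of the 14630 tested genes against the mean of its DMSO and EPZ015666 levels (CPM, x axis). The x axis is logarithmic, with the lowest levels drawn at a floor. Genes that passed the test upward or downward are in color, and 5494 that did not pass are in grey. The largest changes upward are at low level, and named genes such as BIRC3, SOD2 and HSPA5 lie outside the cloud at their level.

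Total counts of the 6 libraries ran from 15376129 to 19114811. Log2 CPM correlated at 0.990 to 0.992 between wells of a group and at 0.945 to 0.950 between groups (Pearson, across genes, which are not independent replicates). No library stood apart from its group. Markers of the serous lineage showed PAX8, a transcription factor of Mullerian epithelium, at 118, 107 and 121 CPM under DMSO and at 137, 140.2 and 155 CPM under EPZ015666. WT1, another such marker, was near 0 in both groups (0.318 and 0.223 CPM) and was too low to test. Of 17 markers of immune cells, 3 passed the filter on low counts, and their summed level over all 17 was 1.08, 0.745 and 0.935 CPM under DMSO and 7.34, 7.15 and 5.72 CPM under EPZ015666. Among those 3 were PTPRC, the leukocyte marker CD45 (0.0374 CPM under DMSO, 2 counts in all, and 1.10 CPM under EPZ015666) and CSF1R, a receptor of macrophages (from 0.200 to 2.44 CPM). The T cell marker CD3D, the B cell marker MS4A1 and the myeloid markers CD163 and TYROBP had no count in any of the 6 libraries. The wells held 1 cultured line, and the study's methods describe no addition of immune cells to them. In such bulk libraries a change in the share of a kind of cell and a change of RNA per cell cannot be told apart.

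Genes of NF-kB signalling, the pathway that switches on inflammatory and survival genes, rose in most cases. Of 29 tested, 21 were higher and 1 lower, 72.4% higher against the 31.9% of all genes, with a median log2 fold change of 0.68 against 0.01 over all genes. BIRC3 (ENSG00000023445.16), which encodes the ubiquitin ligase cIAP2 and is induced by NF-kB, read 6.67, 6.60 and 7.69 CPM under DMSO and 124, 130.3 and 132 CPM under EPZ015666. The lowest treated well was far above the highest solvent well, and the change was 4.20 ± 0.10 (edgeR quasi-likelihood test, adjusted p = 4.34e-19). SOD2, the mitochondrial superoxide dismutase and an NF-kB target, rose by 2.13 ± 0.09, from 418 ± 64.2 to 1823 ± 40.8 CPM (SD, n = 3). Inhibitors in the feedback of the pathway rose too. NFKBIA, which holds NF-kB in the cytoplasm, stood at 54.8, 51.3 and 51.3 CPM under DMSO and 116, 103 and 108 CPM under EPZ015666. TNFAIP3, a deubiquitinase that shuts the pathway off, rose by 1.21, and its partner TNIP1 by 1.39. Among the subunits, NFKB2, the precursor of p52 in the noncanonical branch, read 30.8, 20.5 and 25.5 CPM under DMSO and 69.2, 60.9 and 67.7 CPM under EPZ015666. RELB, its dimer partner, rose by 0.51, from 30.0 to 42.6 CPM. REL (-0.10) did not pass, nor did RELA (-0.19), which passed without DMSO replicate 2 (-0.27). IKBKG, the scaffold of the IKK complex, fell, with 7.27, 7.88 and 7.84 CPM against 4.38, 4.28 and 4.94 CPM. Without DMSO replicate 2 the members that fell were 2. Surface proteins induced by the pathway also rose, with ICAM1, an adhesion molecule for leukocytes, at 107, 91.8 and 92.7 CPM under DMSO and 276, 285 and 276 CPM under EPZ015666, and CD83 changed by 2.34, from 6.58 to 33.5 CPM.

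Of 31 tested chemokine and cytokine genes, 26 rose (83.9%, against 31.9% of all genes) and 3 fell (9.68%, against 30.5%). Their median log2 fold change was 1.72, and their summed level went from 1251, 1081 and 1192 CPM to 4029, 3615 and 4192 CPM. Another 17 of the 48 on the list were too low to test. Members near 0 under DMSO could be tested only where other wells were higher, and could hardly be found to fall. IL6, the cytokine that signals through gp130, read 3.19, 1.92 and 2.08 CPM under DMSO and 24.8, 21.1 and 22 CPM under EPZ015666, a rise of 3.25 ± 0.17 (edgeR quasi-likelihood test, adjusted p = 1.36e-13). CXCL8, which attracts neutrophils, was at 639, 575 and 629 CPM and 2312, 2036 and 2587 CPM, and rose by 1.91 ± 0.13. Each of the pair had its 3 treated wells above its 3 solvent wells. IL23A, a subunit of IL-23, rose by 3.79, from 0.937 to 13 CPM. IL11 and LIF, which share the receptor chain gp130 with IL6, rose by 2.80 and 0.50. IL1B rose by 2.76, from 1.78 to 12 CPM, whereas IL1A, its relative that binds the same receptor, read 86.5, 74 and 79.5 CPM under DMSO and 46.2, 46.8 and 47.4 CPM under EPZ015666. The pair IL1A and IL1B thus moved in opposite directions. IL18, another cytokine of the IL-1 family, rose by 1.93, from 41.6 to 158 CPM. Chemokines of the CXC family parted in the same way. CXCL1 (1.13) and CXCL5 (1.78) rose, and CXCL3 fell from 24.8, 17.5 and 20.5 CPM to 9.65, 7.35 and 8.04 CPM, a change of -1.32 ± 0.17. TNFSF10, the death ligand TRAIL, rose by 2.69, with 5.65, 5.38 and 6.44 CPM under DMSO and 37.4, 34.1 and 41.2 CPM under EPZ015666. IL33 (-0.06) and CXCL12 (-0.18) did not pass. CSF3, the growth factor of granulocytes, had no count in the DMSO wells and 1.18, 2.41 and 1.85 CPM in the EPZ015666 wells. Against a floor of 3 counts over the DMSO group it was at least 32.6-fold higher, and that bound ran from 21.1 to 38.5 when each library was left out in turn.

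Promoters of 3 of these genes are shown because the NF-kB motif lies in each of them while BIRC3 and IL6 rose and CXCL3 fell. Each is the 250 bases before the RefSeq start of the gene (GRCh38.p14), 5′ to 3′ on the strand of the gene, with the motif GGGNNTTTCC, searched on both strands, in capitals. The stretches are chr11:102317234-102317483 on the plus strand for BIRC3, chr7:22726950-22727199 on the plus strand for IL6 and chr4:74038690-74038939 on the minus strand for CXCL3.
BIRC3: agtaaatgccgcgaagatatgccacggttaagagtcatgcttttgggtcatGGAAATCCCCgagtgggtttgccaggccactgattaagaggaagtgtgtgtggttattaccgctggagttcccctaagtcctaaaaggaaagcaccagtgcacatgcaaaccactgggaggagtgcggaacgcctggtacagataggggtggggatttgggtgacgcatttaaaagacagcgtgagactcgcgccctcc
IL6: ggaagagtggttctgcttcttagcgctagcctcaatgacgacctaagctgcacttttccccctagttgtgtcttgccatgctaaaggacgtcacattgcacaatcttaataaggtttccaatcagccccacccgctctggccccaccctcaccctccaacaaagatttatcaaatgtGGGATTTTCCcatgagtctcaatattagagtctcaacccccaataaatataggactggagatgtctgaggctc
CXCL3: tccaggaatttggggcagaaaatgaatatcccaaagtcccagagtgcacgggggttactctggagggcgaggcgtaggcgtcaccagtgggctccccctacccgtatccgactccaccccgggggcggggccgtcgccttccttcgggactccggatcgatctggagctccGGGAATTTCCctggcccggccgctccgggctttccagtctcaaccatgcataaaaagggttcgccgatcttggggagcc
The match begins 199 bases before the start in BIRC3, on the opposite strand, 73 bases before it in IL6 and 79 bases before it in CXCL3. Over all 27305 promoters of 300 bases (250 before and 50 after the start), 1.92% held the motif. It was in 8 of the 26 NF-kB genes with a promoter in the table (30.8%) and in 7 of 23 chemokine and cytokine genes (30.4%). Of tested genes with the motif, 37.0% rose and 30.9% fell, and their median log2 fold change was 0.09. A match says that the letters are there, and nothing on binding was measured here.

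**Figure D2:**
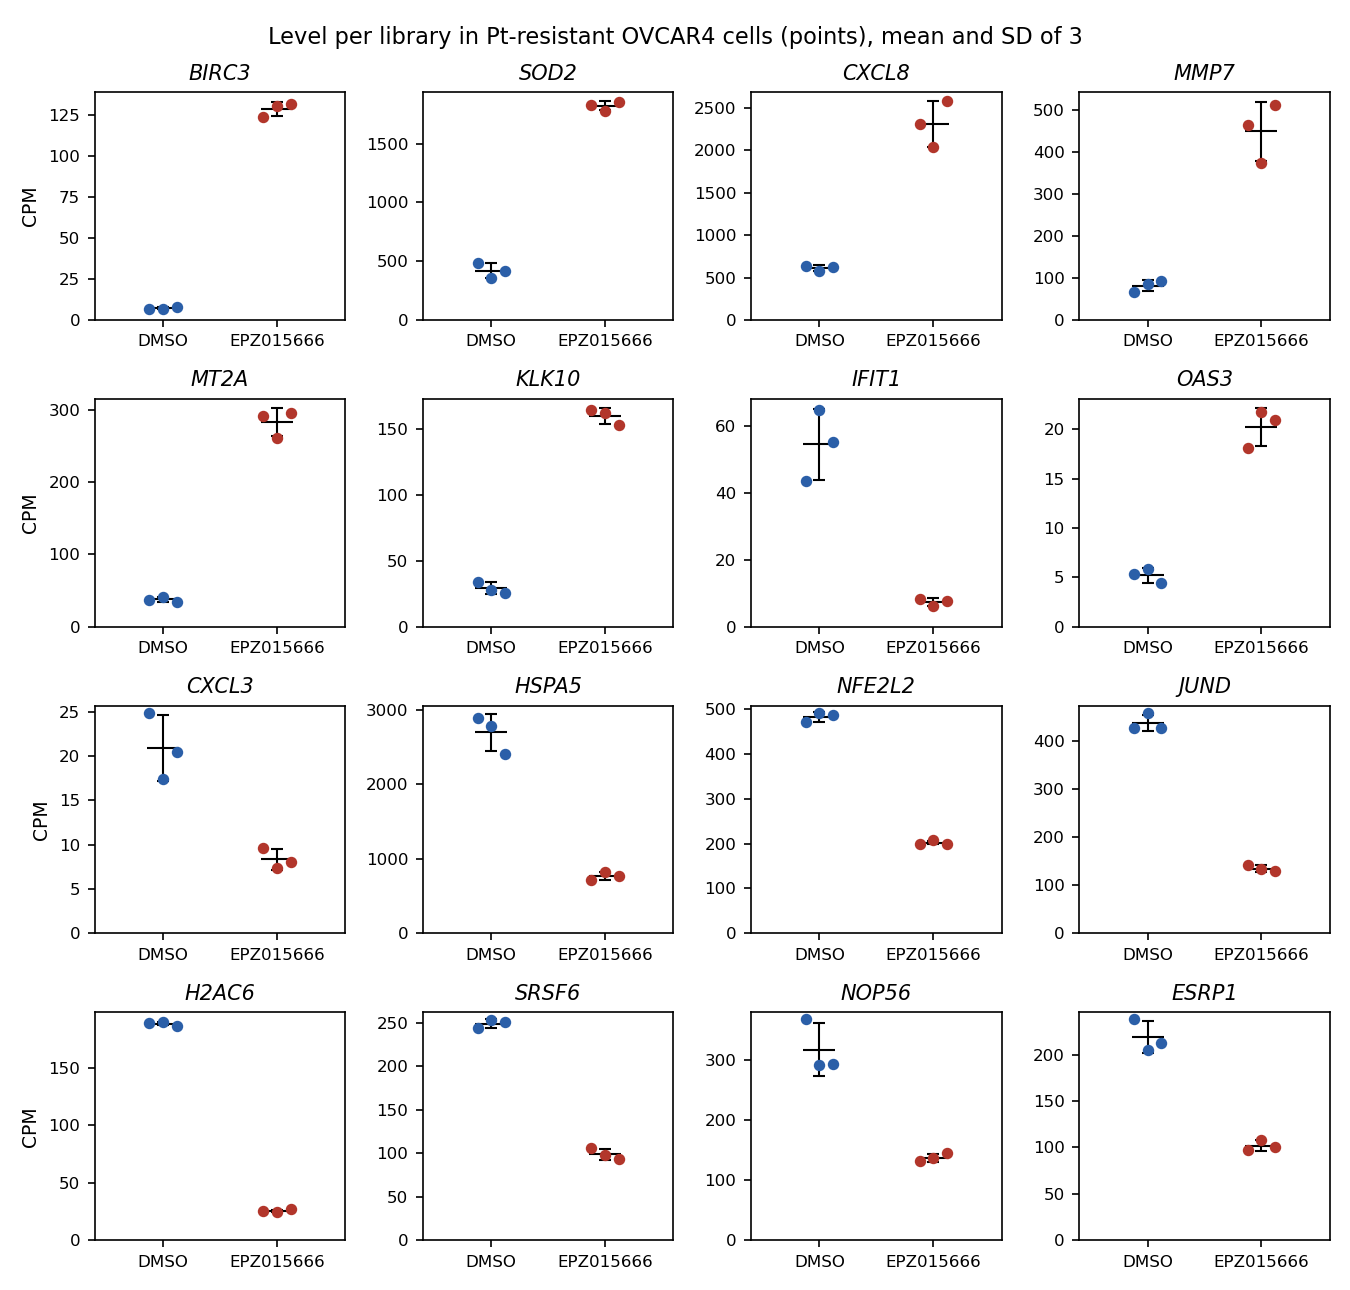
CPM of 16 genes in each well (points) with the mean and SD of each group, in DMSO and EPZ015666 wells of Pt-resistant cells, 1 panel a gene. The wells of the groups do not overlap in any of the 16 panels, with BIRC3 at 6.60 to 7.69 CPM under DMSO and 124 to 132 CPM under EPZ015666.

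Genes of the acute phase, complement and innate defence rose in 21 of 29 cases and fell in 3, with a median of 1.45. These were 72.4% and 10.3%, against 31.9% and 30.5% of all genes. With a filter of 1 CPM in 3 libraries the median was 0.92. Members near 0 under DMSO could be tested only where other wells were higher. They could hardly be found to fall, so the count and the median lean upward. Another 20 on the list were too low to test. Several of the large rises were in secreted or surface proteins that were close to silent under DMSO. SAA2, a serum amyloid A protein, read 0.421, 0.160 and 0.208 CPM under DMSO and 13.9, 18.4 and 12.3 CPM under EPZ015666. CLEC4E, the receptor Mincle, which senses damaged cells and fungi, read 0.180, 0.213 and 0.260 CPM and 10.7, 8.75 and 12.7 CPM. Both were near 0 in each solvent well and clearly expressed in each treated well. S100A9, a subunit of calprotectin, rose by 3.50, with 7.63, 8.78 and 8.78 CPM under DMSO and 110.2, 83.6 and 91.4 CPM under EPZ015666. PI3, the elastase inhibitor elafin, rose by 4.86, from 0.585 to 17.7 CPM. Of the Toll-like receptors, TLR2, which senses bacterial lipoproteins, rose by 3.08, and TLR3, which senses double-stranded RNA, by 1.49. The rises were smaller for C3, the central complement protein (0.62, from 1255 to 1926 CPM), and LCN2, which binds bacterial siderophores (0.71, from 185 to 304 CPM). CD59 and CD46, which protect a cell from its own complement, moved apart, with changes of 0.92 and -0.34.

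The interferon-stimulated genes did not follow the cytokines. Of 36 tested, 9 rose (25%, against 31.9% of all genes) and 15 fell (41.7%, against 30.5%). Their median was -0.26 (-0.12 without DMSO replicate 2), and the members with the largest changes pointed both ways. IFIT1, which binds viral RNA that lacks a methylated cap, read 43.4, 64.7 and 55.3 CPM under DMSO and 8.29, 6.15 and 7.80 CPM under EPZ015666, a change of -2.87 ± 0.14 (edgeR quasi-likelihood test, adjusted p = 5.38e-14). IFIT2, a relative that interferon also induces, read 52, 64.2 and 61.9 CPM and 13.6, 15.9 and 14.8 CPM. OASL, an antiviral protein without synthetase activity, was at 11.8, 9.69 and 10.3 CPM and 1.36, 1.20 and 0.834 CPM, a change of -3.22 ± 0.19. These 3 fell by 4-fold or more. OAS3, which makes the oligoadenylates that switch on RNase L, rose by 1.96 ± 0.14, with 5.29, 5.86 and 4.42 CPM under DMSO and 18.1, 21.8 and 20.9 CPM under EPZ015666. OAS1, another synthetase, read 4.51, 7.40 and 4.16 CPM and 15.4, 14.1 and 15.1 CPM. These synthetases rose while their catalytically inactive relative OASL fell, and OAS2, another synthetase, did not pass (0.24). The neighbours SAMD9 and SAMD9L, which restrict poxviruses, also parted, at 1.34 and -1.24. STAT2, which carries the interferon signal, fell by 0.50 on the log2 scale. EIF2AK2, the kinase PKR, rose by 0.51. BST2, which tethers budding virus, fell by 0.52 on the log2 scale, and IFI6 changed by -0.78.

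**Figure D3:**
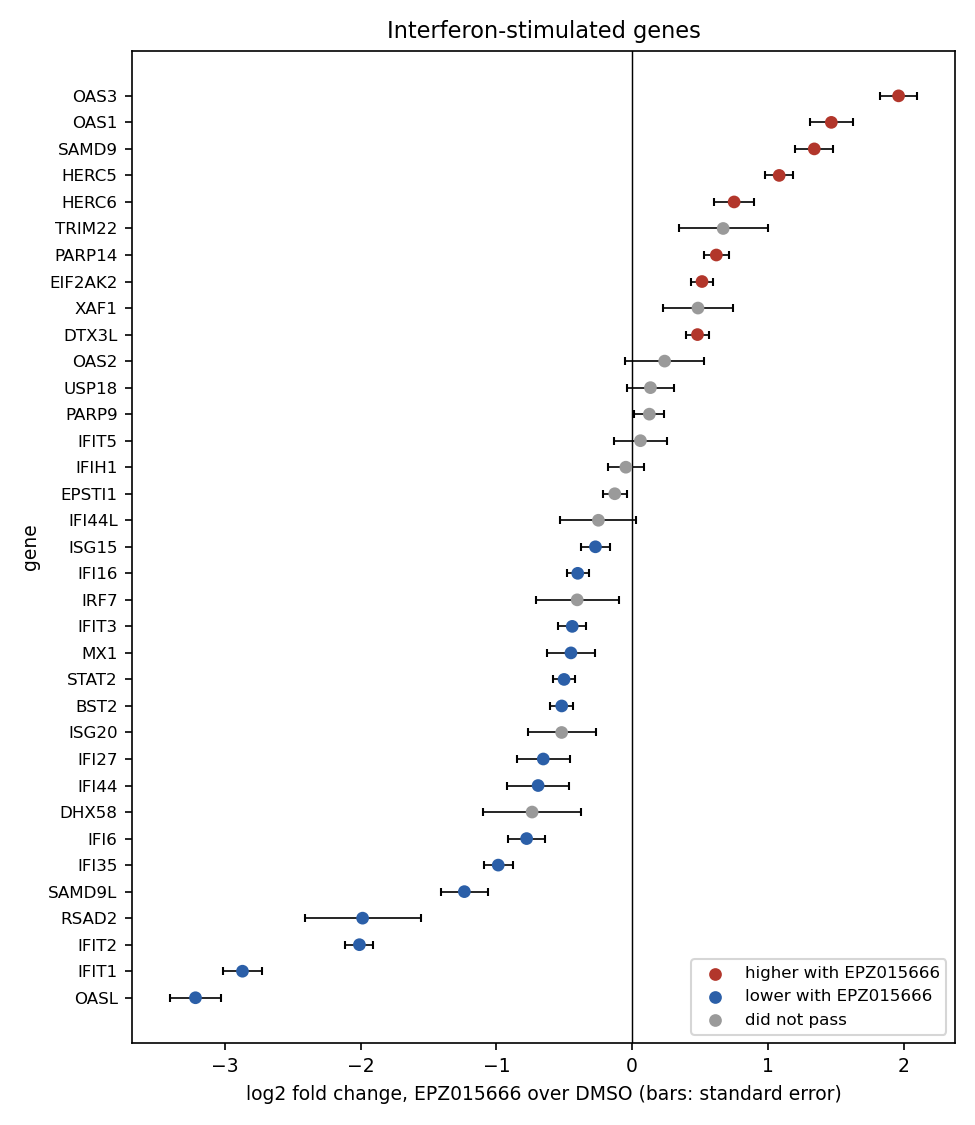
Log2 fold change (EPZ015666 over DMSO) with its standard error for tested interferon-stimulated genes, ordered by value and colored by whether they rose, fell or did not pass. OAS3 (1.96) and OASL (-3.22) stand at the opposite ends.

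The promoters of IFIT1 and OAS3 are printed since both hold the interferon-stimulated response element, searched as GAAANNGAAA on both strands, and the genes moved in opposite directions. They are chr10:89392373-89392622 and chr12:112938224-112938473, both on the plus strand of GRCh38.p14 (RefSeq), 5′ to 3′ to the last base before the start. The element is in capitals, and in OAS3 so is the NF-kB motif GGGNNTTTCC.
IFIT1: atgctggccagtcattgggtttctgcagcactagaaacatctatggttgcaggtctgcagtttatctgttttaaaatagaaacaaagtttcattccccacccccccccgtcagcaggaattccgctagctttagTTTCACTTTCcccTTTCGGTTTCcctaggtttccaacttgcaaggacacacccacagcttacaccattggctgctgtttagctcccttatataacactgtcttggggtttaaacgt
OAS3: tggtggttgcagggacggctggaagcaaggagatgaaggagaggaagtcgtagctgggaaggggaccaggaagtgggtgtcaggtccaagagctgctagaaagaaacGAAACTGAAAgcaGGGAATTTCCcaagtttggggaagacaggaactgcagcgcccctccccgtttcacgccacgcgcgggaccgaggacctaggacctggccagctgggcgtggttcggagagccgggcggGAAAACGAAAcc
IFIT1 held the element on the opposite strand, beginning 116 and 103 bases before the start. OAS3 held it 143 and 12 bases before the start, and the NF-kB motif 130 bases before the start. The element was in 19 of the 28 interferon-stimulated genes with a promoter in the table (67.9%) and in 3.65% of all promoters. Of the 298 tested genes with it, 35.2% rose and 32.9% fell.

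Genes of several steps of antigen presentation rose. Of 18 tested genes, 10 were higher and 2 lower (1 without DMSO replicate 2, EPZ015666 replicate 2 or EPZ015666 replicate 3). Among all genes these shares were 31.9% and 30.5%. The summed level of the list went from 403, 450.2 and 421 CPM to 596, 587 and 615 CPM. B2M, the light chain of class I molecules, rose by 0.41, from 185 to 246 CPM. TAP1 (0.67), which carries peptides into the ER, and TAPBP (1.08), which loads them, also rose, although TAP1 did not pass without DMSO replicate 1 (0.55). ERAP2, which trims peptides, rose by 2.44, and its relative ERAP1 fell by 0.36 on the log2 scale. The class I heavy chain HLA-B (0.19) did not pass, and the near-identical sequence of the class I genes makes its count uncertain. CD74, the invariant chain of class II molecules, read 31, 28.5 and 29.7 CPM under DMSO and 123, 128 and 119 CPM under EPZ015666. CD74 is also expressed by antigen-presenting immune cells, which the study's methods do not describe in these cultures. The summed immune cell markers given above were higher in treated wells too, as were the cytokine, innate defence and antigen presentation genes, and their part in these results was not tested.

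Early response genes differed in direction. Of 27 tested genes of AP-1 and the immediate early group, 10 rose (37%) and 9 fell (33.3%), both near the shares of all genes (31.9% and 30.5%). Within AP-1, JUND read 428, 458 and 429 CPM under DMSO and 142, 134 and 129 CPM under EPZ015666, a change of -1.70 ± 0.09 (edgeR quasi-likelihood test, adjusted p = 2.2e-13). JUN fell by 0.66 on the log2 scale, from 294 to 186 CPM, and FOS changed by -0.99, from 42.2 to 21.2 CPM. The FOS relatives FOSL1 (0.65) and FOSL2 (0.63) rose. Members of the dimer families thus differed in direction. ATF3, the stress-induced partner of JUN, read 244, 222 and 212 CPM under DMSO and 20.2, 19.2 and 18.5 CPM under EPZ015666. MYC fell by 0.77 on the log2 scale, from 171 to 100.4 CPM. MYCL, another member of the MYC family, changed by -2.67, from 11.1 to 1.73 CPM. The orphan nuclear receptors NR4A1 (1.22) and NR4A2 (2.40) rose, and so did SGK1 (2.88), a kinase induced by glucocorticoid and osmotic stress. Of 22 feedback genes of the MAPK pathway, 11 rose (50%) and 3 fell (13.6%), or 1 without DMSO replicate 1. DUSP5, a nuclear ERK phosphatase, read 37.2, 26.8 and 29.2 CPM under DMSO and 94.4, 88.9 and 92.1 CPM under EPZ015666, whereas DUSP6, its cytoplasmic counterpart, fell by 0.70 on the log2 scale. ETV4, a transcription factor that ERK induces, rose by 2.17, from 1.92 to 8.55 CPM.

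**Figure D4:**
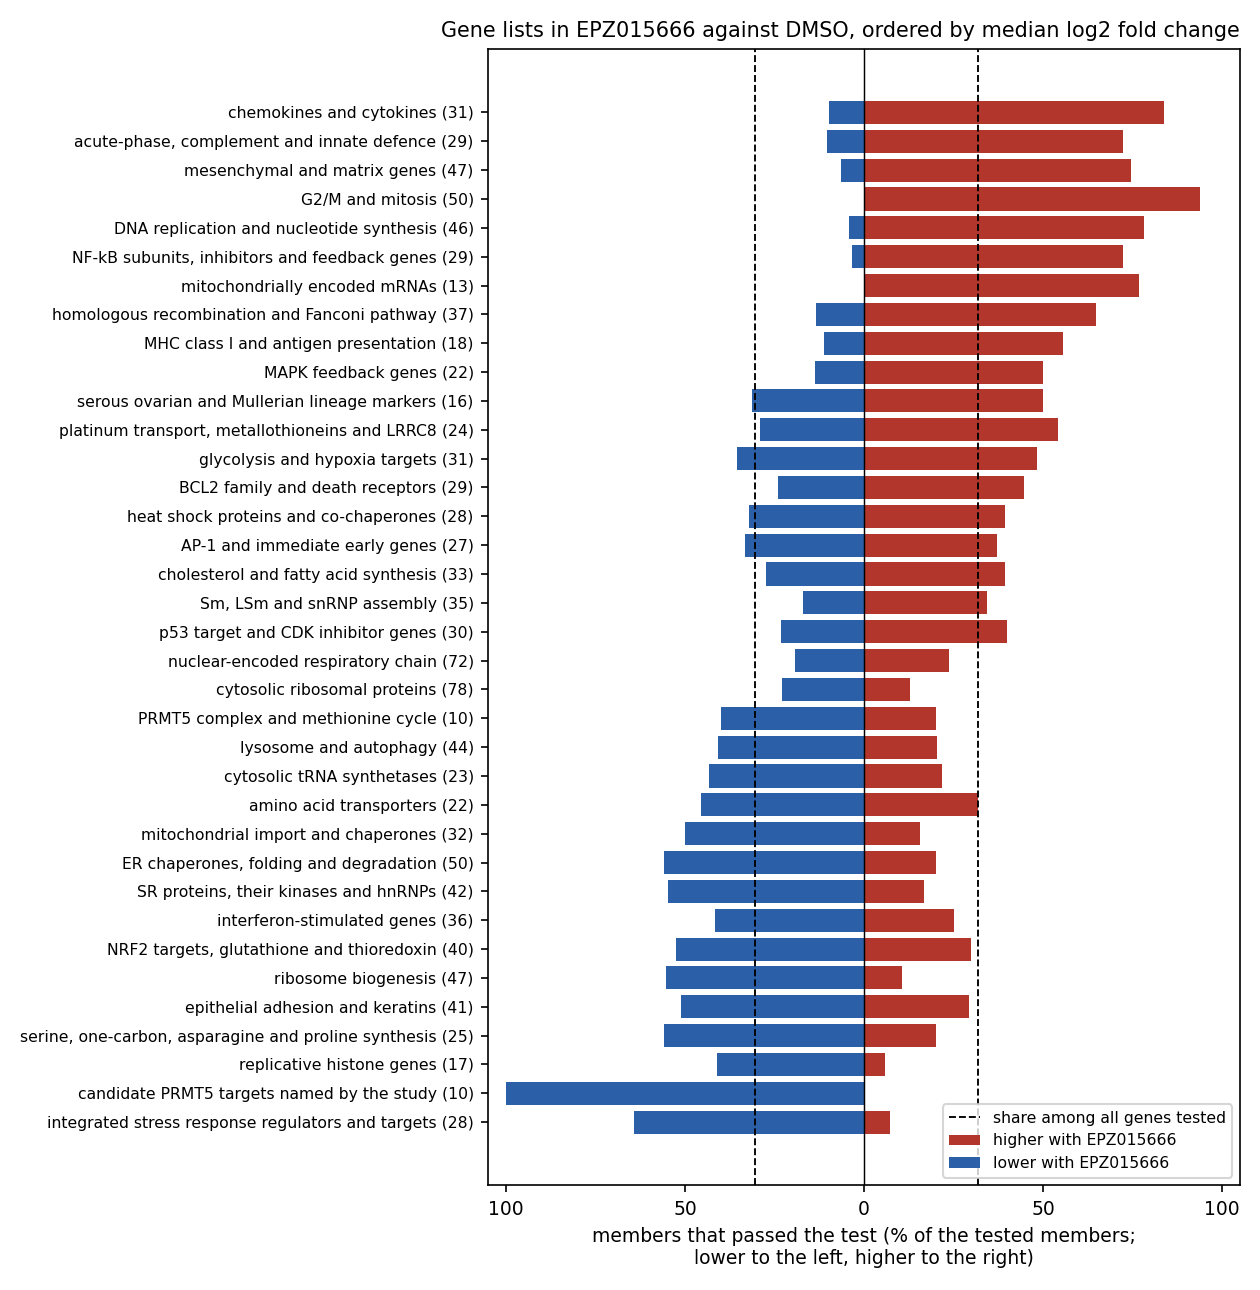
Share of tested genes that rose (right) and fell (left) in each list with at least 10 tested genes, ordered by median log2 fold change, in percent. Dashed lines mark the shares over all 14630 genes (31.9% and 30.5%). Chemokines and cytokines (83.9% higher) head the order and the integrated stress response (64.3% lower) closes it, and the candidate targets, 100% lower, had been chosen by the study on these samples.

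Genes of the integrated stress response, by which cells limit translation and make amino acids and chaperones under stress, fell in 18 of 28 cases and rose in 2. Among all genes tested 30.5% fell and 31.9% rose. The summed level went from 6669, 6251 and 6384 CPM to 3976, 3992 and 3922 CPM. DDIT3, the transcription factor CHOP, read 344, 413 and 414 CPM under DMSO and 112, 115 and 133 CPM under EPZ015666. CEBPG, a partner of ATF4 on its target genes, read 666, 659 and 633 CPM and 234, 246 and 230.0 CPM. VEGFA, a growth factor of vessels that ATF4 also induces, was at 319, 259.9 and 302 CPM and 117, 118 and 117 CPM. In each of these every treated well lay below every solvent well. ATF4, whose protein is set mainly by translation, fell by less, with 354, 356 and 352 CPM and 249.6, 243 and 233 CPM. TRIB3 (-1.30) and PPP1R15A (-1.45), which feed back on the response, fell. GDF15, a secreted stress signal, did not pass (0.07). Of the 4 kinases that start the response, EIF2AK1 (0.26) and EIF2AK2 (0.51) rose, EIF2AK3 (-0.53), the ER kinase PERK, fell, and EIF2AK4 (0.14) did not pass.

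Genes of amino acid supply, many of them targets of this response, were mixed in direction. Their counts are read beside the 30.5% lower and 31.9% higher among all genes. Of 25 genes of serine, one-carbon, asparagine and proline synthesis, 14 fell and 5 rose. PSAT1, the aminotransferase of serine synthesis, fell by 0.50 on the log2 scale, while PHGDH, the enzyme just before it, rose by 0.37, from 573 to 740.2 CPM. PYCR1, of proline synthesis, fell by 0.77 on the log2 scale, from 323 to 189.8 CPM. GOT1, the cytosolic aspartate aminotransferase, fell by 1.54 on the log2 scale, from 171 to 58.7 CPM. Among 22 amino acid transporters, 10 fell and 7 rose, the latter near the share of all genes. SLC7A11, the cystine importer, changed by -1.19, and SLC3A2, the chain that anchors it, by -0.94. SLC7A6, which pairs with the same chain, rose by 0.73. Of 23 cytosolic tRNA synthetases, 10 fell, with GARS1 at -0.49, and 5 rose. QARS1, which charges glutamine, rose by 1.01, with 64.7, 64.3 and 66.1 CPM under DMSO and 129, 131 and 134 CPM under EPZ015666.

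In the endoplasmic reticulum, 28 of 50 genes of chaperones, folding and degradation fell and 10 rose, with a median of -0.23. Among all genes 30.5% fell and 31.9% rose. HSPA5, the chaperone BiP, read 2889, 2784 and 2412 CPM under DMSO and 722, 821 and 764 CPM under EPZ015666, a change of -1.81 ± 0.09 (edgeR quasi-likelihood test, adjusted p = 1.11e-13). Its exchange factor HYOU1 fell by 1.17 on the log2 scale, from 257 to 114 CPM. HSP90B1, the ER form of HSP90, fell by 0.26. So BiP and its partner had larger changes than HSP90B1, and the disulfide isomerases P4HB (0.06), PDIA3 (0.02) and PDIA4 (-0.09) did not pass. The sensors and factors of the unfolded protein response ATF6 (-0.96, from 285 to 147 CPM) and XBP1 (-0.61, from 389.8 to 255 CPM) fell. ERO1A, the oxidase that drives disulfide formation, rose by 0.72, and SSR3, a subunit of the translocon-associated complex, by 0.68, from 598 to 959 CPM. The promoter of HSPA5 is shown for its ER stress element, the site that ATF6 with NF-Y is known to bind, searched as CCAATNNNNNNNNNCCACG on both strands. It is chr9:125241344-125241593 on the minus strand of GRCh38.p14 (RefSeq), 250 bases 5′ to 3′ to the last base before the start, with the element in capitals.
HSPA5: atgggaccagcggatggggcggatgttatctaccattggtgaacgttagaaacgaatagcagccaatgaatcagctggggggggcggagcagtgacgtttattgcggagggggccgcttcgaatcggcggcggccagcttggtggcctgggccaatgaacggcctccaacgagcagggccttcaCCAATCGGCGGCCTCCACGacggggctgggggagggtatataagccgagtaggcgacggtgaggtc
The element begins 66 bases before the start, and its first 5 letters are also a CCAAT box. It was in 0.0806% of all promoters and in 8 of the 47 ER genes with a promoter in the table (17%). Of the 15 tested genes with it, 26.7% rose and 66.7% fell, and their median log2 fold change was -0.31.

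The antioxidant genes fell more often than they rose. Of 40 NRF2 targets and genes of glutathione and thioredoxin, 21 fell and 12 rose, where 30.5% and 31.9% of all genes did so. NFE2L2, which encodes NRF2, fell from 482 ± 10.8 to 202 ± 4.38 CPM (SD, n = 3), and KEAP1, which marks NRF2 for degradation, did not pass (0.15), except without DMSO replicate 1 (0.21). Falls included GCLC, the rate-limiting enzyme of glutathione synthesis (-1.43, from 219 to 81.5 CPM), SQSTM1, the autophagy receptor p62 (-1.52, from 946 to 329 CPM) and OSGIN1 (-2.09). AKR1B1, aldose reductase, rose by 2.59 ± 0.09, with 178, 169 and 155 CPM under DMSO and 1056, 919 and 1044 CPM under EPZ015666. Its relative AKR1B10 rose by 3.18, from 1.37 to 12.4 CPM. Both stood several-fold higher in treated wells while NRF2 mRNA was lower. Of 44 genes of lysosome and autophagy, 18 fell and 9 rose. The protease TPP1 (-1.76, from 89.3 to 26.3 CPM) and the glucosidase GAA (-1.41, from 245 to 91.9 CPM) fell, and the cathepsins parted, with CTSD at -0.83 and CTSB at 0.62.

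Cell cycle genes rose together. Of 50 genes of G2/M and mitosis, 47 rose and none fell (94.0% higher, against 31.9% of all genes), with a median of 0.85. Their summed level went from 3542, 3761 and 3759.7 CPM to 6816, 6991 and 7324 CPM. Those that did not pass were HMMR (0.15), CDC25C (0.11) and CENPM (-0.05). ANLN, a scaffold of the cleavage furrow, read 172, 184 and 208 CPM under DMSO and 502, 527 and 589 CPM under EPZ015666. MYBL2, the activator of mitotic genes in the MuvB complex, read 116, 108 and 107 CPM and 307, 317 and 311 CPM. CDC20, which activates the anaphase-promoting complex, was at 57.8, 59 and 54.4 CPM and 119, 105 and 111 CPM, a rise of 0.97 ± 0.09. The kinases AURKA (0.74) and PLK1 (0.73) and the cyclin CCNB1 (0.58) rose by less than ANLN. The promoter of CDC20 is printed as one of many in this group that hold both the cell cycle homology region, TTTGAA, and the CCAAT box, CCAAT, each searched on both strands. It is chr1:43358731-43358980 on the plus strand of GRCh38.p14 (RefSeq), 250 bases 5′ to 3′ to the last base before the start, with both motifs in capitals.
CDC20: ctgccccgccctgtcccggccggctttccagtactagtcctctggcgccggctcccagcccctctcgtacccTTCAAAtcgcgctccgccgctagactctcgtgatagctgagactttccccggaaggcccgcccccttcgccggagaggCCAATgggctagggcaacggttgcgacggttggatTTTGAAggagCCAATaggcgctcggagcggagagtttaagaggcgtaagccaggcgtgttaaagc
The homology region begins 178 bases before the start on the opposite strand and 65 bases before it on the strand of the gene, and the boxes lie at 100 and 55 bases. Of 42 genes of the group with a promoter in the table, 27 held TTTGAA (64.3%) and 32 held CCAAT (76.2%), against 15.4% and 35.7% of all promoters. Of the 1052 tested genes with TTTGAA, 39.6% rose and 26.8% fell.

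Of 46 genes of replication and nucleotide synthesis, 36 rose and 2 fell, where 31.9% and 30.5% of all genes did so. POLE2, a subunit of the leading-strand polymerase, rose by 1.72, and PCNA, the sliding clamp, by 1.01, from 132 to 266 CPM. TYMS, which makes thymidylate, rose by 1.18. CDC6, which loads the helicase, did not pass (165 to 162 CPM). CAD, the first enzyme of pyrimidine synthesis, and CTPS1 were the 2 that fell, at -0.26 and -0.24. Neither held throughout, since CAD did not pass without DMSO replicate 1 (-0.19), DMSO replicate 3 (-0.26), EPZ015666 replicate 1 (-0.20) or EPZ015666 replicate 2 (-0.19). CTPS1 did not pass without DMSO replicate 1 (-0.15) or EPZ015666 replicate 3 (-0.21). Repair genes that act on platinum crosslinks, by homologous recombination or the Fanconi pathway, rose in 24 of 37 cases and fell in 5. UBE2T, the ubiquitin-conjugating enzyme of the Fanconi pathway, read 31.9, 38.9 and 40.1 CPM under DMSO and 94.4, 88.8 and 89.9 CPM under EPZ015666. BRIP1, a helicase, read 14.8, 15.1 and 14.3 CPM and 36.4, 37.7 and 34.2 CPM. FANCD2, the substrate of UBE2T, rose by 0.99. Each of these had its treated wells above its solvent wells, and BRCA1 did not pass (-0.20, edgeR quasi-likelihood adjusted p = 0.114), except without DMSO replicate 1 (-0.27) or EPZ015666 replicate 2 (-0.33). RAD50 (-0.51), XRCC3 (-0.51) and PALB2 (-0.31) fell.

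The replicative histones, whose mRNAs mostly lack a poly(A) tail, had 17 of 61 genes with enough counts. Of these 7 fell, 1 rose and 9 did not pass, where 30.5% of all genes fell and 31.9% rose. The summed level of the histones went from 331, 332 and 327 CPM to 125, 110.4 and 122 CPM. H2AC6 read 189, 189 and 186 CPM under DMSO and 25.2, 24.9 and 26.7 CPM under EPZ015666, a change of -2.88 ± 0.11 (edgeR quasi-likelihood test, adjusted p = 7.09e-16), and made up most of the drop in the summed level. H4C8 read 12.7, 13.6 and 14.4 CPM and 3.08, 2.20 and 2.92 CPM. H3C6 was at 26.3, 22.1 and 29.2 CPM and 9.89, 10.4 and 9.65 CPM. The treated wells of these 3 were each lower than any solvent well. H2AC8 was the member that rose (1.41), joined by another without DMSO replicate 1 or EPZ015666 replicate 2, when 2 rose. Near-identical copies make histone counts uncertain, since STAR counts uniquely mapped reads. Among inhibitors of cyclin-dependent kinases, CDKN2B, which encodes p15, read 232, 178 and 176 CPM under DMSO and 71.5, 79.2 and 70.0 CPM under EPZ015666, and CDKN1B, which encodes p27, read 86, 89.3 and 92 CPM and 56, 59.2 and 50.5 CPM. Both fell. Of 30 tested genes of p53 targets and these inhibitors 7 fell and 12 rose, where 30.5% and 31.9% of all genes did so. CDKN1A (-0.12), which encodes p21, and the p53 target MDM2 (0.01) did not pass. CDKN2C, which encodes p18, rose by 1.25.

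Of the splicing factors, SR proteins with their kinases and the hnRNPs fell in 23 of 42 cases (54.8%, against 30.5% of all genes). They rose in 7 (16.7%, against 31.9%), or in 4 without DMSO replicate 3. SRSF6, an SR protein that promotes exon inclusion, read 244, 253 and 251 CPM under DMSO and 106, 97.8 and 92.9 CPM under EPZ015666, a change of -1.34 ± 0.08 (edgeR quasi-likelihood test, adjusted p = 5.13e-13). SRSF7 (-0.93, from 457 to 239 CPM), TRA2B (-0.80, from 478 to 274 CPM) and CLK1 (-0.95), a kinase of SR proteins, fell. PTBP2, the neuronal relative of the repressor PTBP1, rose by 0.79. The Sm and LSm proteins, among which are substrates of PRMT5, moved less, with 12 of 35 higher (34.3%), 6 lower (17.1%) and a median of 0.02. SNRPB, which encodes the methylated SmB proteins, rose by 0.64, from 221 to 343 CPM, and LSM8, of the nuclear LSm ring, fell by 0.62 on the log2 scale. LSM3 rose by 1.07, with 41.9, 52.7 and 49.4 CPM under DMSO and 107, 95.5 and 101 CPM under EPZ015666. GEMIN8, of the SMN complex that loads Sm proteins on snRNA, read 19.4, 16 and 20.7 CPM and 6.81, 6.21 and 5.48 CPM. Splicing itself was not read from these counts.

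**Figure D5:**
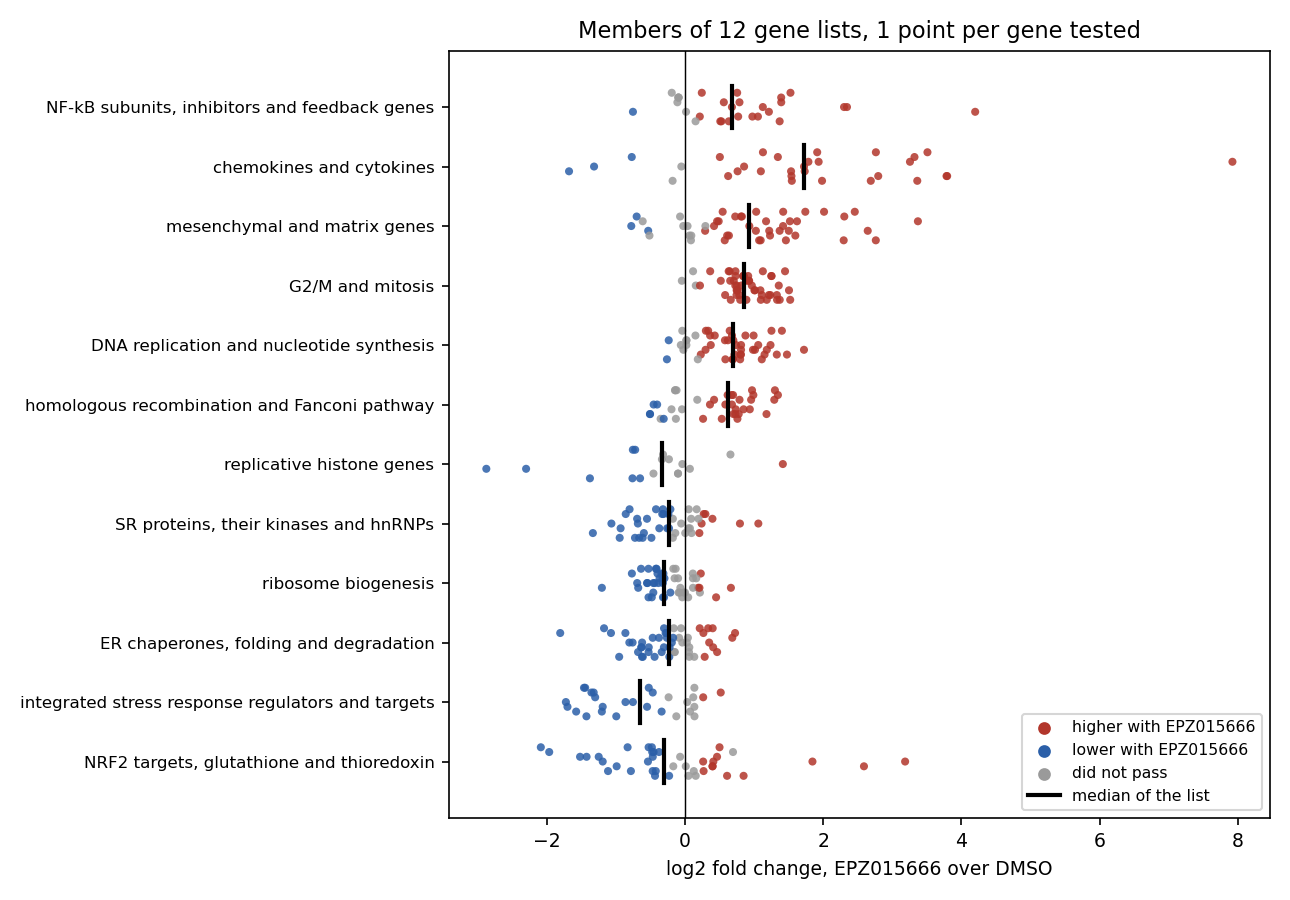
Log2 fold change (EPZ015666 over DMSO) of each tested gene of 12 lists (points), with the median of each list as a bar and 0 as a line. The medians run from below 0 for the integrated stress response (-0.65) to 1.72 for chemokines and cytokines, and the highest point, CSF3, is a fitted value for a gene with no count under DMSO.

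Genes that build ribosomes fell while ribosomal proteins moved little. Of 47 genes of ribosome biogenesis, 26 fell and 5 rose, where 30.5% and 31.9% of all genes did so. The median of this list was -0.31. The number that rose was 2 without EPZ015666 replicate 3, and 3 without EPZ015666 replicate 1, DMSO replicate 2 or DMSO replicate 3. NOP56, a core protein of the box C/D snoRNPs, read 368, 291 and 293 CPM under DMSO and 131, 137 and 144 CPM under EPZ015666, a change of -1.21 ± 0.09. Its partner NOP58 fell by 0.55 on the log2 scale, while FBL, the methyltransferase of the same particles, rose by 0.45. POLR1A, the large subunit of RNA polymerase I, fell by 0.64 on the log2 scale, and RRN3, its initiation factor, changed by -0.77. Of 78 cytosolic ribosomal proteins, 10 rose and 18 fell, both below the shares of all genes, with a median of -0.04. These counts rest on single wells: without EPZ015666 replicate 3, 6 rose, and without DMSO replicate 2 or EPZ015666 replicate 2, 10 and 11 fell. Zinc finger genes named ZNF, many of them repressors of transposable elements, fell in 254 of 473 cases and rose in 58, which is 53.7% lower against 30.5% of all genes. ZNF33B (-1.84, from 45.4 to 12.7 CPM) and ZNF12 (-1.51, from 103 to 36.2 CPM) fell, and ZNF519 rose by 2.02.

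Of 13 mRNAs encoded in mitochondrial DNA, 10 rose and none fell, with a median of 0.66. They took 5.19%, 4.45% and 4.78% of counts in the DMSO wells and 7.52%, 8.31% and 6.26% in the EPZ015666 wells. The groups did not overlap, and p was 0.1 in an exact permutation test (two-sided), the lowest value that 3 wells against 3 allow. The share of the mitochondrial rRNAs was 4.28% ± 0.388 and 4.24% ± 0.153 (SD, n = 3; exact p = 0.8). Of 72 nuclear genes of the respiratory chain, 17 rose and 14 fell, both below the shares of all genes (31.9% and 30.5%). Of 32 genes of mitochondrial import and chaperones, 16 fell and 5 rose, or 3 without any 1 of the DMSO replicates or without EPZ015666 replicate 1. HSPA9, the chaperone that pulls proteins into the matrix, fell by 0.88 on the log2 scale, from 1763 to 961 CPM, and TIMM44, which tethers it to the channel, changed by -1.16, from 161 to 71.8 CPM. TIMM44 is also among 10 candidate targets that the study named. All 10 fell, with a median of -0.57, but they were chosen on these samples and are not independent evidence of a direction.

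Genes of the mesenchyme and matrix rose in 35 of 47 cases and fell in 3, against 31.9% and 30.5% of all genes. Their median was 0.93. MMP7, matrilysin, read 67.3, 85.4 and 92.5 CPM under DMSO and 463, 372 and 511 CPM under EPZ015666, a rise of 2.46 ± 0.13 (edgeR quasi-likelihood test, adjusted p = 2.13e-13). PLAUR, the receptor of urokinase, read 9.02, 9.37 and 10.0 CPM and 64.2, 59.3 and 54.3 CPM. The protease and the receptor rose severalfold. VIM, the intermediate filament of mesenchymal cells, read 272, 221 and 234 CPM and 519, 441 and 515 CPM. TAGLN, an actin-binding protein, rose from 1.26, 2.34 and 1.71 CPM to 14.1, 10.0 and 12.3 CPM, and naive cells stood at 185, 153 and 179 CPM. ZEB1, the repressor that drives the mesenchymal state, did not pass (-0.03), nor did CDH2, N-cadherin (0.09). LAMA5, a laminin chain, and TIMP3, an inhibitor of metalloproteases, fell (-0.54 and -0.70). Epithelial genes fell in 21 of 41 cases and rose in 12, the latter near the share of all genes. ESRP1, which sets the epithelial splice forms, read 239, 205 and 213 CPM under DMSO and 96.7, 108 and 101 CPM under EPZ015666, a change of -1.10 ± 0.08. GRHL2, a transcription factor that keeps cells epithelial, fell by 1.15 on the log2 scale, and CDH1, E-cadherin, read 80.1, 73 and 69.6 CPM and 44.8, 52.3 and 54.6 CPM. Keratins and junction genes did not move together: KRT7 fell (-0.51), KRT18 rose (0.31), KRT8 did not pass (0.07), and DSG2, a desmosomal cadherin, rose by 0.73. Of 15 markers of fibroblasts and endothelium, 7 could be tested, of which 2 rose and 2 fell, and their summed level was 141, 133 and 139 CPM under DMSO and 104, 121 and 117 CPM under EPZ015666. Without EPZ015666 replicate 1, 4 of them rose. The endothelial genes PECAM1 (-0.40) and CDH5 (-0.54) fell, while ERG, an endothelial transcription factor, rose by 0.71, from 5.35 to 8.73 CPM. COL1A1, the main collagen of fibroblasts, rose by 1.42.

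The serous lineage markers held 8 genes that rose and 5 that fell of 16 tested. The kallikreins KLK6 (1.69), KLK7 (2.65) and KLK10, secreted proteases of ovarian tumours, rose, with KLK10 at 34, 27.7 and 25.7 CPM under DMSO and 164, 162 and 153 CPM under EPZ015666, a change of 2.46 ± 0.10. FOLR1, a folate receptor, rose by 1.47, and WFDC2, which encodes HE4, by 0.89. MSLN, mesothelin, changed by -1.22 and the transcription factor SOX17 by -0.40, and both fell. Among 24 tested genes of metal and drug transport, metallothioneins and LRRC8 channels, 13 rose and 7 fell, where 31.9% and 30.5% of all genes did so. Not all of them are known to act on platinum, such as the zinc transporter SLC39A14 (0.26). The genes that rose include MT1A, with 0 counts over the DMSO wells, 5 over the EPZ015666 wells and 95 over the naive wells. Its DMSO and EPZ015666 wells overlapped. Metallothioneins, which bind metals and platinum through cysteines, were among those that rose. MT2A read 37.6, 41.5 and 33.9 CPM under DMSO and 292, 262 and 297 CPM under EPZ015666, a rise of 2.91 ± 0.10 (edgeR quasi-likelihood test, adjusted p = 1.44e-16). MT1E (1.98) and MT1X (1.29) rose as well, though near-identical copies make counts in this family uncertain. The copper transporters ATP7A (-0.54) and ATP7B (-0.59), which export platinum, fell. SLC31A1, a copper importer, fell too (-0.24, from 103 to 87.5 CPM). ATOX1, the copper chaperone that serves the exporters, rose by 0.82, from 83.1 to 146 CPM. Of the volume-regulated channel, LRRC8C rose by 1.22 and LRRC8D, the subunit through which platinum enters, fell by 0.36 on the log2 scale.

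In the apoptotic machinery 13 of 29 genes rose and 7 fell, where 31.9% and 30.5% of all genes did so. FAS, the receptor of the FAS ligand, read 12.1, 11.7 and 12.3 CPM under DMSO and 40.2, 42.9 and 45.4 CPM under EPZ015666, while TNFRSF10B, a receptor of TRAIL, fell by 0.76 on the log2 scale, from 166 to 98.3 CPM. MCL1, a short-lived inhibitor of BAX and BAK, read 879, 899 and 873 CPM and 585, 575 and 564 CPM. BID, which links death receptors to mitochondria, rose by 1.36, and BAX by 0.49. Inhibitors of apoptosis went both ways, since BIRC5 (0.73, from 144 to 238 CPM) and BCL2L1 (0.24) rose and BCL2 (-0.53) fell. CASP8, a caspase, fell by 0.42 on the log2 scale.

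Metabolic lists were mixed, and are read beside the 31.9% higher and 30.5% lower among all genes. Of 31 genes of glycolysis and hypoxia, 15 rose and 11 fell. PKM, pyruvate kinase, rose by 0.73, from 827 to 1368 CPM, PFKL, the liver phosphofructokinase, fell by 0.98 on the log2 scale, and GAPDH did not pass (-0.01). ADM, a peptide hormone induced by hypoxia, rose by 1.61, while VEGFA fell. Of 33 genes of cholesterol and fatty acid synthesis, 13 rose and 9 fell. HMGCS1, at the head of the mevalonate pathway, rose by 0.80, from 212 to 371 CPM, and TM7SF2, a sterol reductase late in the pathway, changed by -1.96, from 50.2 to 12.9 CPM. Of 28 heat shock proteins and co-chaperones, 11 rose and 9 fell, with HSPA2 at 2.30 and BAG1 at -0.96.

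Beyond these groups, single genes had large changes in level. ACTG1, cytoplasmic gamma actin, rose by 0.92 ± 0.09, from 1818 ± 136 to 3435 ± 132 CPM (SD, n = 3), though reads shared with its pseudogenes are left out of its count. UPP1, uridine phosphorylase, fell from 666 ± 90.2 to 207 ± 8.97 CPM, a change of -1.69 ± 0.09. LAMP3, a lysosomal membrane protein, fell from 114 ± 15.3 to 17.3 ± 4.37 CPM. FGF9, a growth factor, read 44.6, 39.4 and 40.2 CPM under DMSO and 6.45, 6.48 and 6.49 CPM under EPZ015666. Its treated wells were nearly equal. LCA5L fell by 4.01 on the log2 scale, with 13.5, 13.6 and 13 CPM and 1.07, 0.802 and 0.596 CPM. Large folds upward from low levels included KCNJ16, a potassium channel (4.23, from 0.756 to 14.5 CPM), and FGFBP1, a carrier of fibroblast growth factors (from 0.422 to 6.81 CPM). KRT6A, a keratin of stressed epithelium, had 2 counts over the DMSO wells and 115 over the EPZ015666 wells, which is 64.6-fold (17.5 to 540, 95% interval of counting error). That ratio was 42.4 without DMSO replicate 2, 41.9 without DMSO replicate 3 and at least 30.0 without DMSO replicate 1. Antisense transcripts, which cannot be told from their partner genes where the strand setting of the counting is not given, fell in 131 of 389 cases and rose in 73. Long noncoding genes named LINC rose in 76 of 193 cases and fell in 41. Over all genes 31.9% rose and 30.5% fell, so the share of antisense transcripts that fell was near that of all genes.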

How the data were processed

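RNA was read from OVCAR4 cells in 3 groups of 3 wells, of which the 6 Pt-resistant libraries were compared. By the study's methods, libraries came from a directional NEBNext kit and were run on an Illumina sequencer. FastQC was used by the authors for quality checks, and STAR for alignment and counting. The deposited table holds raw counts, whole numbers without any scaling. Its genome build, annotation and strand column were not given in the sources used here, and no gene coordinates were taken from it. Reads with several alignments or within overlapping genes are not counted by STAR in this mode.

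Of 61487 genes, 61369 matched a symbol table by Ensembl ID and 105 were named from GENCODE 29. Counts were analysed with edgeR 4.0.16 in R 4.3.3. The function filterByExpr (minimum count 10) retained 14630 genes, with 99.9% of all counts. Libraries were scaled by TMM. The quasi-likelihood model had a term for each of the 3 groups, took in all 9 libraries and gave the contrast of EPZ015666 with DMSO, with Benjamini-Hochberg adjustment over all genes and a threshold of 0.05. Totals of 15376129 to 19114811 counts set the precision, and counting intervals (95%) and floors (3 counts over a group) cover counting error only. The biological coefficient of variation was 7.66%. The fit was also run on simulated data with 200 changed genes of 14630. That is far fewer than the 9136 called here, so the run does not test scaling or false calls under so broad a response.

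The gene lists and the members named were chosen with earlier results of these data known. Genes were named as members of the lists, and otherwise where they passed the test, had a symbol, averaged at least 5 CPM in either group and had no overlap of wells, for the 15 largest folds and the 12 largest CPM differences in each direction. Lists are described by counts and medians, with no test of a list. Promoters came from a RefSeq table on GRCh38.p14, in which 10977 of 13978 tested genes with a symbol had an entry. Alternatives were RLE scaling, library totals alone, no filter, a filter of 1 CPM in 3 libraries, DESeq2 1.42.0, limma-voom (limma 3.58.1), a fit on the 6 libraries alone, the replicate number as a block, and each library left out. Other assays of the study were not used here. Several list members are not reported here.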

Additional observations from a re-analysis of the deposited data

How the results depend on the processing

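The counts of called genes stayed within 1.5 times under the alternatives run, but with library totals alone fewer genes were higher (4428) than lower (4785). Upward and downward calls were 4669 and 4467, and ran over the other settings from 4428 (library totals alone) to 4914 (no filter) and from 4281 (DESeq2) to 4785 (library totals alone). Leaving out each library gave 4352 to 4580 higher and 4069 to 4251 lower, and at 2-fold 1650 to 1776 and 938 to 996. Without a low-count filter, 2074 genes were higher and 1158 lower at 2-fold. The replicate numbers did not pair the wells, since same-numbered wells had correlations of their deviations of -0.003, -0.027 and 0.054, and with the replicate number as a block 4677 genes were higher and 4508 lower.

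Among lists, library totals alone gave 1 higher among other arginine methyltransferases, 2 in ribosome biogenesis and 3 in mitochondrial import, and 2 lower in NF-kB. Without a filter these first 3 were 1, 3 and 3, and 3 histones rose. The median of the acute-phase list was 0.92 with the filter of 1 CPM in 3 libraries. Low-level genes are limited by depth, since genes below the minimum count in too many wells were not tested. The cause of these moves was not tested.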
